A study of Danio rerio with 8 samples.

Results

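The comparison described here sets tumour fractions sorted as positive for mCherry only against fractions negative for both reporters, in zebrafish embryonal rhabdomyosarcoma. The fractions were sorted by colour, not by cell type. Both populations were negative for GFP and came from the same tumours, so the array of each mCherry-only fraction was paired with the double-negative array of its tumour. The arrays were chosen by their titles, which name the reporters and the tumour number, and they make up 4 of the 8 arrays of the study, 2 for each population. The other 4 arrays hold the double-positive and the GFP-only cells of the same 2 tumours and served here to estimate the spread and to set the same mCherry contrast beside GFP-positive cells.

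All groups share one tumour model. Fish carrying myf5-GFP, a reporter of early myogenic cells, and mylz2-mCherry, a reporter of differentiated fast muscle, received rag2-kRAS12D, an activated kras under the promoter of rag2, as embryos. The strain is given as CG1, outcrossed 4 times. Tumours were grown in syngeneic recipients without reporters for more than 20 days, so cells of the recipient carry neither reporter. The gate in which such cells were sorted was not tested. The mCherry-only cells were GFP-negative and mCherry-positive, and the double-negative cells were negative for both colours. Each of the 2 tumour numbers gave 1 array per population. The sources used here give no age or sex of the fish. P-values rest in part on how far differences between populations varied from tumour 1 to tumour 2, after the level of each tumour was taken out. That spread was pooled over all 4 populations and then drawn towards a value common to all probe sets. The common value carried 6.81 degrees of freedom and the probe set's own spread 3. A p-value therefore depends more on the other probe sets than on the gene's own variation between tumours.

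Fast skeletal muscle contracts when calcium binds troponin on the thin filament and frees actin for the myosin heads of the thick filament. Parvalbumins and the calcium pump of the sarcoplasmic reticulum then remove the calcium, and creatine kinase keeps ATP supplied. Rhabdomyosarcoma cells resemble muscle cells arrested at different points on the way to this state, and a solid tumour also holds macrophages, granulocytes, vessels and blood. In bulk samples such as these, fewer cells of a type and less RNA per cell cannot be told apart.

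Values are the deposited log-scale signals of Affymetrix zebrafish probe sets, read as log2. The sources used here do not state the base of the logarithm, so differences are given and folds are not. Pairs of values are in the order tumour 1, tumour 2. A difference is mCherry-only minus double-negative with limma's standard error, and calls are at a Benjamini-Hochberg adjusted p under 0.05 over all 15502 probe sets. Array medians lay between 4.54 and 4.71. The rank correlation of mCherry-only with double-negative cells was 0.816 in tumour 1 and 0.779 in tumour 2, above the correlation between the tumours, which was 0.753 for the mCherry-only arrays and 0.671 for the double-negative arrays. Both GFP-negative arrays of tumour 2 stood apart from the 4 GFP-positive arrays, with rank correlations between 0.553 and 0.708. The values of each tumour are therefore shown for many of the genes, while others are given by their mean difference alone. The tumour 1 double-negative array was closest to the GFP-only array of its tumour, at 0.906, and that of tumour 2 to the mCherry-only array of its tumour, at 0.779.

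Of the 15502 probe sets, 118 were called (0.761%). The 82 that were higher in mCherry-only cells made up 0.529% and the 36 that were lower made up 0.232%. They name 65 genes that were higher and 27 that were lower. All 118 had the same sign in both tumours, and 57.9% of all probe sets did. The test itself favours differences alike in both tumours, so this agreement is no separate check of the calls. An unadjusted p under 0.05, called nominal here, was reached by 823 probe sets on the higher side (5.31%) and by 589 on the lower side (3.80%). For 19 of the 36 lower probe sets, both mCherry-only arrays lay under their lower quartile of signal, and for 12 of the 82 higher ones both double-negative arrays did. Without the tumour as a block, 29 higher and 14 lower probe sets were called, all of them among the 118. Without the GFP-negative arrays of tumour 2 the counts were 54 and 36. Counting each gene once by its brightest probe set, 59 of 8793 genes were called higher (0.671%) and 24 lower (0.273%). By the same count 5.49% of genes were nominally higher and 4.14% nominally lower. Both mCherry-only arrays lay above both double-negative arrays in 15.5% of genes, and below both in 14.8%. These shares are the background for every list below.

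**Figure D1:**
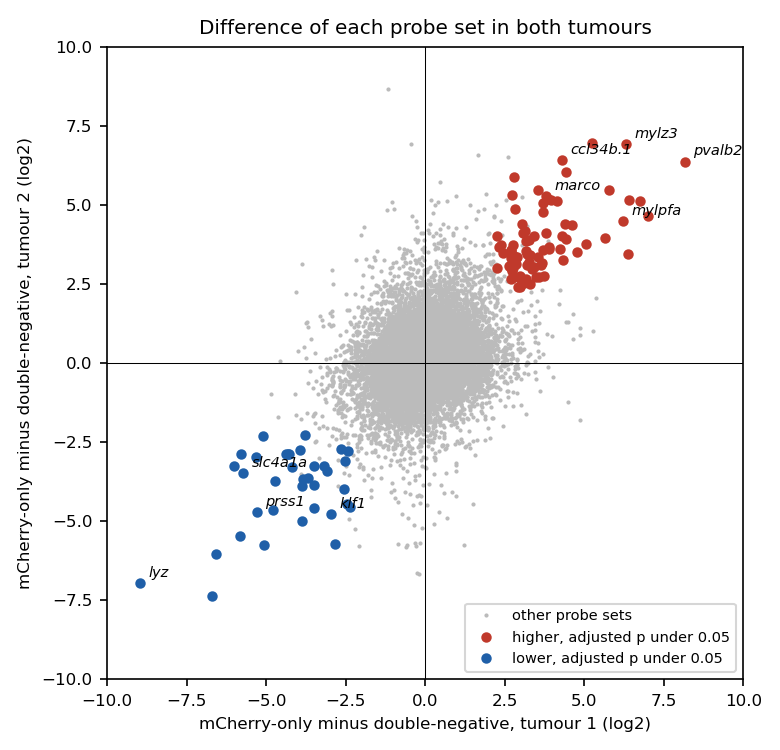
Difference between mCherry-only and double-negative cells for each of 15502 probe sets in tumour 1 (horizontal axis) and tumour 2 (vertical axis), both on the log2 scale. Red points mark the 82 probe sets called higher in mCherry-only cells and blue points the 36 called lower. All of them lie in the quadrants where both tumours have the same sign, which the calling itself favours.

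The reporter's own gene was read first, as a check of the labels. The mCherry gene is driven by the promoter of mylz2, now named mylpfa, which encodes the regulatory light chain of fast muscle myosin. Its signal was 10.80 and 9.21 in mCherry-only cells, against 4.58 and 4.73 in double-negative cells. Both mCherry-only arrays lay above both double-negative arrays and the difference was 5.35 ± 0.58 (limma, adjusted p = 0.00483). Its other probe set gave 10.99 and 7.56 in mCherry-only cells, against 3.98 and 2.90 in double-negative cells, a difference of 5.83. With the tumour 1 mCherry-only array left out the first difference was 4.70, at an adjusted p of 0.0807. Transcripts of myf5, the determination factor whose promoter drives GFP, stood at 3.28 and 4.34 in mCherry-only and 3.96 and 4.07 in double-negative cells. These values overlap, and the difference was -0.20 ± 0.63 (adjusted p = 0.959).

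Genes of the fast muscle thick filament were higher in mCherry-only cells where they were called. Of 25 listed genes, 10 had a named probe set, and 3 of the 10 were called higher and 0 lower, against 0.671% and 0.273% of all genes. Their median difference was 2.95, with 3.53 in tumour 1 and 1.81 in tumour 2, against 0.00 over all genes. In 6 of the 10 both mCherry-only arrays lay above both double-negative arrays, a pattern found in 15.5% of all genes. The calls, the median and this count include mylpfa. Its promoter drives the mCherry used for sorting, so its call is no separate result.

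The alkali light chain gene mylz3 was among the brightest of the list, at 11.81 and 10.44 in mCherry-only cells and 5.49 and 3.51 in double-negative cells. It rose by 6.63 ± 0.51 (adjusted p = 0.00136). The other alkali light chain gene, myl1, was at 9.65 and 7.82 in mCherry-only cells, against 5.92 and 5.07 in double-negative cells. Its difference of 3.24 ± 0.56 was called (adjusted p = 0.0333) but not without the block (0.112). The heavy chain and binding protein genes did not pass. The myosin binding protein H gene mybphb had 9.25 and 6.44 in mCherry-only cells, against 3.88 and 4.38 in double-negative cells, which do not overlap (difference 3.71, adjusted p = 0.0526). For the fast heavy chain gene myhz1.3 the signal was 8.26 and 4.79 in mCherry-only cells and 3.60 and 3.24 in double-negative cells (3.11, adjusted p = 0.116).

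Thin filament genes followed, led by the troponins. Of 39 listed genes 23 had a named probe set, with 6 called higher and 0 lower (0.671% and 0.273% of all genes). The median difference was 1.73 (2.35 in tumour 1, 1.26 in tumour 2). In 16 of the 23 the populations did not overlap and mCherry-only cells were higher, against 15.5% of all genes. Troponin I is the subunit that holds the thin filament off, and 3 of its fast muscle genes were called. The largest difference was that of tnni2a.4, at 8.98 and 8.46 in mCherry-only and 3.73 and 1.49 in double-negative cells (6.11 ± 0.63, adjusted p = 0.00381). The neighbouring gene tnni2a.3 had 9.49 and 7.49 in mCherry-only cells, against 3.83 and 3.52 in double-negative cells (4.82 ± 0.62, adjusted p = 0.0093, 0.0551 without the block). For tnni2b.1 the values were 9.64 and 8.91 in mCherry-only cells and 6.87 and 5.56 in double-negative cells (3.06, adjusted p = 0.0445). Its call was lost without the block and with a floor at each array's 25th percentile. Leaving out any GFP-only, double-positive or mCherry-only array also lost it. So did leaving out the double-negative array of tumour 2 or both GFP-negative arrays of tumour 2.

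The calcium sensor of the same complex, the fast troponin C gene tnnc2.2, was at 10.78 and 8.52 in mCherry-only cells and 4.04 and 3.39 in double-negative cells (5.94 ± 0.59, adjusted p = 0.00358). Tropomyosin blocks the myosin sites of actin at rest, and its gene tpma was at 10.44 and 8.73 in mCherry-only cells, against 4.07 and 5.28 in double-negative cells (4.91 ± 0.66, adjusted p = 0.0101). The muscle actin gene actc1b had 11.75 and 9.80 in mCherry-only cells, against 7.88 and 4.61 in double-negative cells. Its groups do not overlap, but its level differed between tumours in both populations, and the difference of 4.53 ± 0.64 (adjusted p = 0.0124) had an adjusted p of 0.142 without the block. Of its 3 other probe sets 1 gave 4.54 and the others 0.44 and 0.59. Fast troponin T and the Z disc crosslinker did not pass. The troponin T gene tnnt3b had a difference of 3.23 (adjusted p = 0.166) and the α-actinin gene actn3b one of 3.04 (adjusted p = 0.0817).

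Parvalbumins, the calcium buffers that speed the relaxation of fast fibres, held the largest difference above zero of any named gene. The list of parvalbumins and calcium handling had 20 of 38 genes measured, 4 called higher and 0 lower (0.671% and 0.273% of all genes). The median difference was 1.22 (1.66 in tumour 1, 1.13 in tumour 2). Without overlap 12 genes lay above, against 15.5% of all genes. In mCherry-only cells pvalb2 was at 11.25 and 8.98, against 3.09 and 2.61 in double-negative cells, where both arrays lay under their lower quartile (7.27 ± 0.57, adjusted p = 0.00136). For pvalb1 the arrays read 10.67 and 9.06 in mCherry-only and 4.25 and 3.91 in double-negative cells (5.79 ± 0.51, adjusted p = 0.00201). The gene pvalb4 was at 7.42 and 7.94 in mCherry-only cells and 2.98 and 1.91 in double-negative cells (5.24 ± 0.57, adjusted p = 0.00483), the only one of the 13 called fast muscle genes that was not lower in the mCherry-only array of tumour 2 than in that of tumour 1. Parvalbumin and troponin genes have close copies, and a probe set could read more than 1 of them.

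The calcium pump gene atp2a1l had 10.98 and 7.78 in mCherry-only cells, against 6.59 and 3.37 in double-negative cells. The difference was nearly equal in both tumours while the level was not, and the call (4.40 ± 0.62, adjusted p = 0.0119) was lost without the block (0.393). Neither pvalb3 nor atp2a1 passed. The first was at 6.70 and 4.44 in mCherry-only cells and 1.44 and 3.42 in double-negative cells (3.14, adjusted p = 0.229). For atp2a1 the arrays read 8.60 and 4.15 in mCherry-only cells and 4.18 and 2.85 in double-negative cells (2.86, adjusted p = 0.143).

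In the list of muscle energy supply, of 14 measured genes 1 was called higher and 0 lower (0.671% and 0.273% of all genes). The median difference was 0.88. The muscle creatine kinase gene ckmb had 10.81 and 8.54 in mCherry-only cells, against 6.05 and 5.04 in double-negative cells (4.13 ± 0.58, adjusted p = 0.0119, 0.11 without the block). Its paralogue ckma differed by more in tumour 2 than in tumour 1, at 11.39 and 10.05 in mCherry-only and 8.79 and 3.53 in double-negative cells, and did not pass (4.56, adjusted p = 0.0815). Outside the lists, the mitochondrial uncoupling protein gene ucp3 was at 8.88 and 6.31 in mCherry-only cells and 4.28 and 1.93 in double-negative cells (4.49 ± 0.55, adjusted p = 0.00793, 0.16 without the block).

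Of the 13 fast muscle genes called across the filament and calcium lists, 7 were lost when the tumour 1 mCherry-only array was left out and 7 when that of tumour 2 was, with adjusted p-values up to 0.313. Leaving out the tumour 2 double-negative array lost 4, and leaving out that of tumour 1 lost 1. Leaving out 1 mCherry-only array moved the thick filament median to 1.87 (without tumour 1) or 3.76 (without tumour 2). The 13 genes include mylpfa, whose promoter drives the mCherry used for sorting. A floor at each array's 25th percentile lost 6 of the 13 (adjusted p 0.0686 to 0.108). These were myl1, actc1b, tpma, tnni2a.3, tnni2b.1 and atp2a1l. With that floor ckmb (adjusted p = 0.0597) and ucp3 (adjusted p = 0.0819) were lost too.

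**Figure D2:**
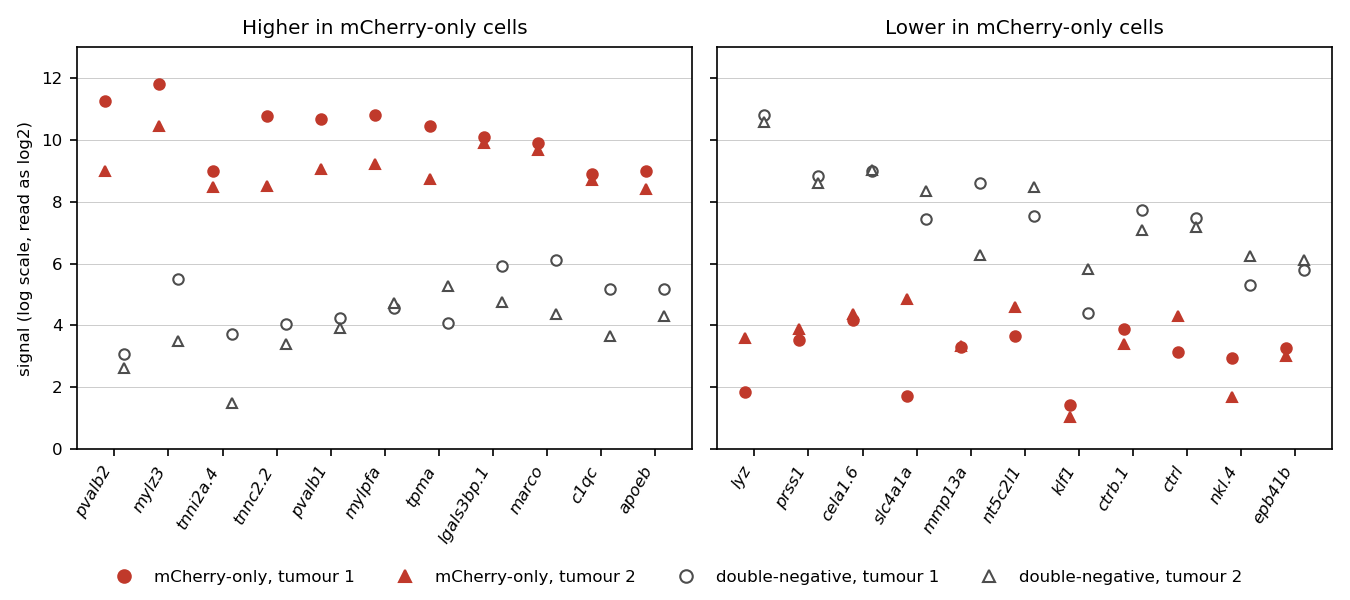
Signal of 11 genes called higher (left) and 11 called lower (right) in mCherry-only cells, on the log scale read as log2, with filled red symbols for mCherry-only and open grey symbols for double-negative arrays, circles for tumour 1 and triangles for tumour 2. The populations do not overlap in any of these genes, which were picked because they were called, and all 7 muscle genes on the left are lower in tumour 2 than in tumour 1 within mCherry-only cells (pvalb2 at 8.98 and 11.25).

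Myogenic regulators, fusion and early fibre genes, and slow and cardiac muscle genes gave no calls. Among 18 measured myogenic regulators and progenitor genes 0 were called by limma, with 2 nominally higher (5.49% of all genes were) and 0 nominally lower (4.14%), and a median difference of 0.46. The determination factor gene myod1 stood at 4.73 and 3.57 in mCherry-only cells and 2.39 and 1.90 in double-negative cells (2.00 ± 0.66, adjusted p = 0.333). With a floor at each array's 25th percentile its difference was 0.63. The receptor gene fgfr4 was at 4.79 and 2.40 in mCherry-only and 8.02 and 2.84 in double-negative cells, so that the tumours differed more than the populations (-1.84, adjusted p = 0.653). Myoblast fusion and early fibre genes had 0 of 14 called, 2 nominally higher and 0 lower, and a median of 0.29. In that list the caveolin gene cav3 was at 7.72 and 6.59 in mCherry-only cells, against 6.06 in the double-negative array of tumour 1 and a listed 0 in that of tumour 2 (adjusted p = 0.285). The intermediate filament gene desma had 9.86 and 9.03 in mCherry-only cells, against 8.20 and 4.22 in double-negative cells (3.23, adjusted p = 0.206). Slow and cardiac muscle genes had 0 of 8 called, 0 nominal calls, and a median of 0.14 (0.68 in tumour 1, -0.22 in tumour 2). Their largest differences were those of mybpc3 (1.41, with 2.69 in tumour 1 and 0.12 in tumour 2) and myh7 (0.66).

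Besides muscle, the macrophage list was the one with calls on the higher side in mCherry-only cells. Of 45 listed genes 24 were measured, 11 were called higher and 0 lower, against 0.671% and 0.273% of all genes. Nominally higher were 19 (5.49% of all genes). The median difference was 2.71, with 2.28 in tumour 1 and 2.95 in tumour 2. In 22 of the 24 mCherry-only cells lay above without overlap, against 15.5% of all genes. The mean signal of the list was 8.88 and 8.84 in mCherry-only cells, against 6.73 and 6.05 in double-negative cells, 6.19 and 6.42 in double-positive and 5.51 and 5.35 in GFP-only cells. Most of these genes are macrophage genes by common use rather than by exclusive expression, and lysosomal proteases among them are made by many cell types. The part of macrophages within the mCherry gate in any muscle or macrophage result was not tested.

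Surface and secreted molecules led this group. The scavenger receptor gene marco had 9.91 and 9.67 in mCherry-only cells, against 6.10 and 4.38 in double-negative cells (4.55 ± 0.58, adjusted p = 0.00885). The galectin-3 binding protein gene lgals3bp.1 was at 10.08 and 9.91 in mCherry-only and 5.93 and 4.77 in double-negative cells (4.65 ± 0.52, adjusted p = 0.00483). The complement gene c1qc, a chain of C1q, had 8.89 and 8.71 in mCherry-only cells, against 5.18 and 3.65 in double-negative cells (4.39 ± 0.55, adjusted p = 0.00869). In these genes the mCherry-only arrays of both tumours lay closer together than the double-negative arrays did. The lipid carrier gene apoeb stood at 8.98 and 8.41 in mCherry-only cells and 5.19 and 4.31 in double-negative cells (3.95 ± 0.46, adjusted p = 0.00681). Outside the list, the CC chemokine gene ccl34b.1 was at 8.62 and 9.67 in mCherry-only cells and 4.33 and 3.26 in double-negative cells (5.35 ± 0.61, adjusted p = 0.00572).

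The remaining 7 called members lay between 2.82 and 3.73. They include csf1ra, the receptor for the growth factor on which macrophages depend, with 8.82 and 8.12 in mCherry-only and 5.39 and 4.09 in double-negative cells (3.73, adjusted p = 0.0287). With a floor at each array's 25th percentile the call of csf1ra was lost (adjusted p = 0.0639). The amino acid transporter gene slc7a7 differed by 3.65 and the progranulin gene grna by 3.43. The lysosomal cathepsin genes differed by 3.58 for ctsba, 3.52 for ctss2.1, 2.83 for ctss2.2 and 2.82 for ctsz. Not called were the bone and macrophage protease gene ctsk, at 9.36 and 9.85 in mCherry-only cells and 7.54 and 6.11 in double-negative cells (2.78, adjusted p = 0.185), and grna.1 (2.63, adjusted p = 0.0784). All 11 calls were lost when either mCherry-only array was left out (adjusted p 0.0723 to 0.287 for that of tumour 1 and 0.0812 to 0.34 for that of tumour 2), with list medians of 2.69 and 2.54. Leaving out the tumour 2 double-negative array lost 7, and without the tumour block csf1ra, ctss2.2 and ctsz were lost.

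Genes that leukocytes share gave no calls between the GFP-negative populations. Among 24 measured cytoskeletal and shared leukocyte genes 0 were called by limma, with 3 nominally higher and 3 nominally lower and a median of -0.14. Their mean signal was 7.34 and 7.58 in mCherry-only and 7.55 and 7.60 in double-negative cells, against 4.49 and 4.96 in double-positive and 4.05 and 3.99 in GFP-only cells. Within the list, the myeloid transcription factor gene spi1b had 8.03 and 8.46 in mCherry-only cells, against 6.63 and 4.64 in double-negative cells (2.61, adjusted p = 0.151). The chemokine receptor gene cxcr4a had 1.71 and 0.67 in mCherry-only cells, against 4.46 and 3.75 in double-negative cells (-2.92, adjusted p = 0.0895). Both of its mCherry-only arrays lay under their lower quartile, and with the floor at the 25th percentile the difference was -0.41.

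Granulocyte genes held the largest difference of any named gene, in the other direction. Of 17 measured genes 2 were called lower and 0 higher, against 0.273% and 0.671% of all genes. Nominally higher were 2 and nominally lower 5 (5.49% and 4.14% of all genes). The list median was -0.24, with -0.38 in tumour 1 and 0.14 in tumour 2. Without overlap, 4 lay above and 5 below (15.5% and 14.8% of all genes), so the list did not move one way. The lysozyme gene lyz, whose product degrades bacterial walls and marks myeloid cells in zebrafish, was at 1.85 and 3.60 in mCherry-only cells, against 10.81 and 10.57 in double-negative cells (-7.96 ± 0.64, adjusted p = 0.00136). Both mCherry-only arrays lay under their lower quartile, as in the double-positive (1.69 and 3.43) and GFP-only arrays (2.23 and 1.97). The collagenase gene mmp13a had 3.31 and 3.33 in mCherry-only cells, against 8.62 and 6.29 in double-negative cells (-4.13 ± 0.60, adjusted p = 0.0138, 0.0997 without the block). With the floor the call of mmp13a was lost too (adjusted p = 0.11). The next members did not pass. On the higher side the oxidase subunit gene ncf1, chosen after its values were seen, was at 8.22 and 7.81 in mCherry-only cells and 6.48 and 5.18 in double-negative cells (2.19, adjusted p = 0.159). The gelatinase gene mmp9 was at 5.05 and 6.60 in mCherry-only and 9.91 and 7.59 in double-negative cells (-2.92, adjusted p = 0.255). The carboxypeptidase gene cpa5, which is also on the pancreas list, had 4.35 and 4.63 in mCherry-only cells, against 8.08 and 6.21 in double-negative cells (-2.65, adjusted p = 0.125).

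The lymphocyte list was thinly covered, with 8 of 35 genes measured. Of these 1 was called lower and 0 higher, against 0.273% and 0.671% of all genes. That gene, nkl.4 for an NK-lysin, a membrane-lysing peptide of cytotoxic lymphocytes, was at 2.94 and 1.70 in mCherry-only cells, against 5.30 and 6.24 in double-negative cells (-3.45 ± 0.58, adjusted p = 0.0294). Both mCherry-only arrays lay under their lower quartile, and the gene passed in 6 of the 15 alternative settings that tested it, the fit without the block not among them (adjusted p = 0.0663). With a floor at each array's 25th percentile its difference was -2.08 (adjusted p = 0.0842). The thymocyte factor gene tox differed by -0.31 on its brightest probe set. Its other probe set, singled out after its values were seen, had 0.59 and 1.25 in mCherry-only cells and 5.66 and 7.0 in double-negative cells (-5.41, adjusted p = 0.00483). Both of these mCherry-only values lay under the lower quartiles of their arrays, which were 3.64 and 3.75. The list also holds polr1g, an RNA polymerase subunit entered under its older symbol (1.34, adjusted p = 0.403), and the T cell factor gene gata3 (-1.21, adjusted p = 0.605).

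Erythroid genes were lower in mCherry-only cells where they were called. Of 25 measured genes 5 were called lower and 0 higher, against 0.273% and 0.671% of all genes. Nominally lower were 11 and nominally higher 0 (4.14% and 5.49% of all genes). Without overlap 12 lay below (14.8% of all genes did). The median difference was -1.23, with -1.32 in tumour 1 and -0.74 in tumour 2. Mean signals were 4.25 and 4.93 in mCherry-only cells and 5.68 and 6.04 in double-negative cells, with 3.69 and 3.82 in double-positive and 3.28 and 3.80 in GFP-only cells.

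The anion exchanger of the red cell membrane, slc4a1a, had 1.72 and 4.84 in mCherry-only cells, against 7.44 and 8.33 in double-negative cells (-4.61 ± 0.77, adjusted p = 0.0287, 0.0817 without the block). The nucleotidase gene nt5c2l1 was at 3.67 and 4.6 in mCherry-only and 7.55 and 8.49 in double-negative cells (-3.88 ± 0.51, adjusted p = 0.01). For klf1, a transcription factor of globin genes, the signal was 1.44 and 1.05 in mCherry-only cells and 4.41 and 5.83 in double-negative cells (-3.88 ± 0.70, adjusted p = 0.0375, 0.0724 without the block). These are dim signals, and with the floor the klf1 difference was -1.43 (adjusted p = 0.334). The membrane skeleton gene epb41b differed by -2.82 (adjusted p = 0.0322, 0.069 without the block), and alas2, the first enzyme of heme synthesis in red cells, by -2.69 (adjusted p = 0.048). Both mCherry-only arrays of epb41b lay under their lower quartile, and its call held in 3 of the 15 alternative settings that tested it. With the floor the call of alas2 was lost (adjusted p = 0.0574). Neither gata1a (-1.90, adjusted p = 0.294) nor blvrb (-1.80, adjusted p = 0.186) passed. The measured globin genes hbaa1, hbae3, hbba2, hbbe2 and hbbe3 were not called either. On their brightest probe sets none differed by more, in size, than blvrb. All 5 calls were lost when the tumour 1 mCherry-only array or the tumour 2 double-negative array was left out, and 4 when the tumour 2 mCherry-only array or the block was.

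Digestive enzyme genes of the exocrine pancreas, where called, were lower in mCherry-only cells. Of 19 measured genes 4 were called lower and 0 higher, against 0.273% and 0.671% of all genes. Nominally lower were 13 (4.14% of all genes), and 14 lay below without overlap (14.8% of all genes). The median difference was -2.16, with -2.33 in tumour 1 and -1.71 in tumour 2. The trypsin gene prss1 had 3.54 and 3.90 in mCherry-only cells, against 8.84 and 8.62 in double-negative cells (-5.01 ± 0.48, adjusted p = 0.00335). The elastase gene cela1.6 was at 4.19 and 4.38 in mCherry-only cells and 8.98 and 9.03 in double-negative cells (-4.72 ± 0.49, adjusted p = 0.00381).

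The chymotrypsin genes completed the calls. The arrays for ctrb.1 read 3.89 and 3.39 in mCherry-only cells and 7.74 and 7.07 in double-negative cells (-3.77 ± 0.56, adjusted p = 0.0161, 0.058 without the block), and those for ctrl read 3.15 and 4.29 in mCherry-only and 7.46 and 7.18 in double-negative cells (-3.60 ± 0.55, adjusted p = 0.0195). The proelastase gene ela3l did not pass (-2.48, adjusted p = 0.0834). List means were 3.84 and 4.12 in mCherry-only cells, 6.09 and 5.80 in double-negative cells, 3.96 and 3.63 in double-positive and 3.16 and 4.00 in GFP-only cells. Of the 8 arrays, the double-negative ones were the 2 with the highest list mean. The source of these and of the erythroid and lyz transcripts in the double-negative gate was not tested. Leaving out either mCherry-only array lost 3 of the 4 calls, and prss1 passed in all 16 alternative settings.

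**Figure D3:**
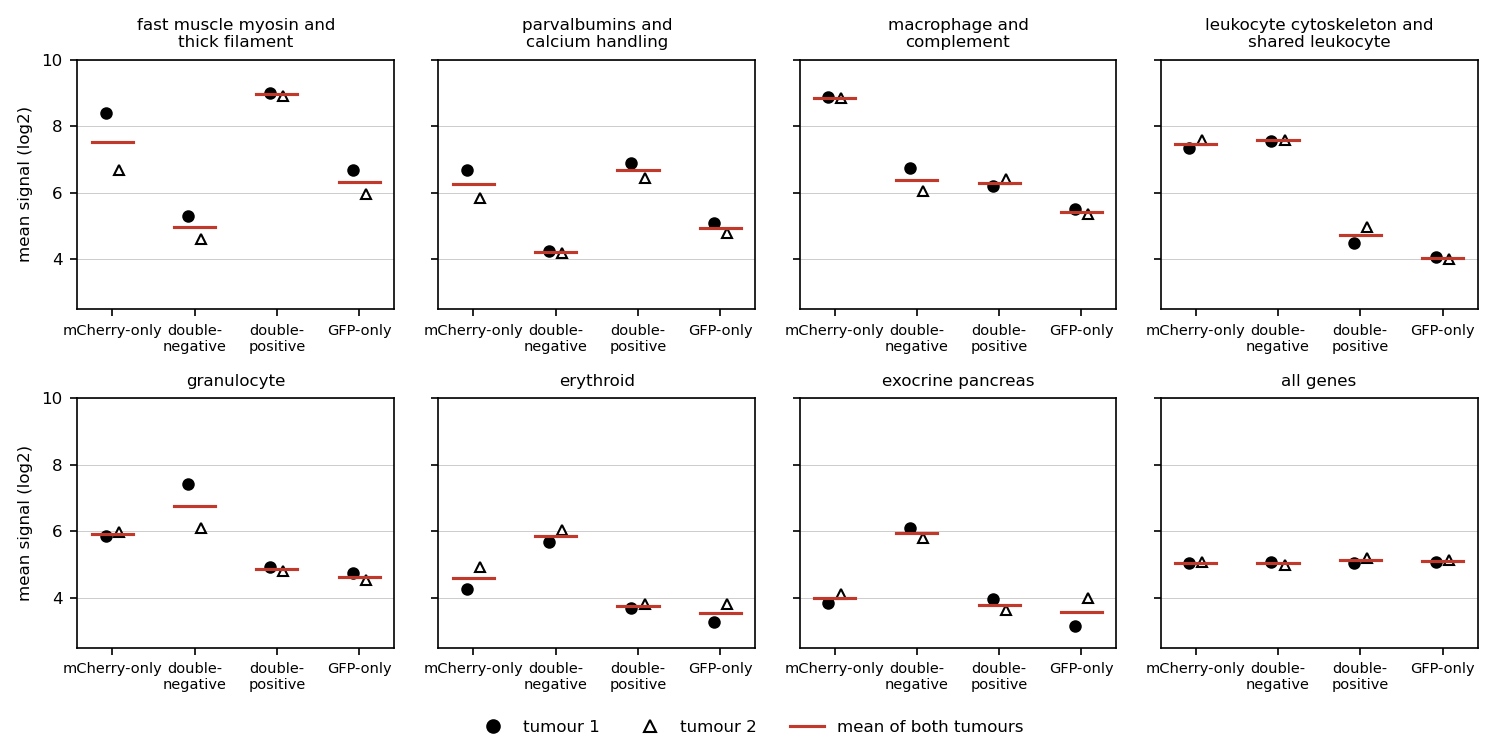
Mean signal of 7 gene lists and of all genes on each array, on the log scale read as log2, by population, with filled circles for tumour 1, open triangles for tumour 2 and red lines for the mean of both. The macrophage list is highest in mCherry-only cells (8.88 and 8.84), the erythroid and pancreas lists are highest in double-negative cells, and the shared leukocyte list is high in both GFP-negative populations.

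Among genes outside the lists, those with the largest negative differences have broader roles. The kinase gene pak1, a target of Rac and Cdc42, had 4.09 and 4.18 in mCherry-only cells, against 7.96 and 9.18 in double-negative cells (-4.43 ± 0.54, adjusted p = 0.00755). The nucleosome-binding protein gene hmgn3 was at 5.07 and 3.57 in mCherry-only and 7.90 and 9.31 in double-negative cells (-4.28 ± 0.68, adjusted p = 0.0231). The transcription cofactor gene lbh had 4.46 and 5.49 in mCherry-only cells, against 7.97 and 9.34 in double-negative cells (-3.68 ± 0.47, adjusted p = 0.00928). In each the populations did not overlap, and double-negative cells of tumour 2 were higher than those of tumour 1. The protease inhibitor gene spint1a (0.47 and 1.87 in mCherry-only cells, 4.76 in both double-negative arrays), the phosphatase gene ptpn4b (4.27 and 3.58 in mCherry-only cells, 6.72 and 8.05 in double-negative cells) and si:ch211-240l19.8 (2.08 and 2.73 in mCherry-only cells, 6.47 and 5.61 in double-negative cells) were also called, with differences of -3.59, -3.46 and -3.64. With the floor the calls of hmgn3, ptpn4b, si:ch211-240l19.8 and spint1a were lost (adjusted p 0.074 to 0.201). There spint1a differed by -1.07 (adjusted p = 0.201). Leaving out the tumour 2 mCherry-only array lost all 6, leaving out that of tumour 1 lost 5, and the fit without the block lost 4 (adjusted p up to 0.11).

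Markers of other tissues and broad cell programmes gave no calls. Limma called 0 of 13 endothelial, 24 fibroblast and matrix, 32 epithelial, 22 liver, 22 neural and 7 thrombocyte genes, with medians between -0.26 (fibroblast and matrix) and 0.16 (epithelial). Nominally they had 1 gene higher and 0 lower (endothelial), 0 and 2 (fibroblast and matrix), 1 and 0 (epithelial), 1 and 0 (liver), 1 and 3 (neural), and 0 and 2 (thrombocyte). The largest single difference was in the liver list, where the fibrinogen gene fgg was at 2.81 and 10.86 in mCherry-only cells and 3.98 and 2.2 in double-negative cells, so that it stood high on the mCherry-only array of tumour 2 alone (adjusted p = 0.573). The collagen gene col1a2 had 3.65 and 2.69 in mCherry-only cells, against 6.67 and 5.28 in double-negative cells (-2.80, adjusted p = 0.421), and the matrix gene sparc differed by -1.97 (adjusted p = 0.651). The other leading values, none of them called, included those of the desmosome gene dspa (1.81), krt15 (-1.66), rbp4 (-1.74), fabp7a (-2.17) and nkx2.2a (1.71). Also among them were mrc1a (1.83), tal1 (-1.36), fn1b (-1.82) and f5 (-1.67). The krt15 difference changed sign between tumours, at -3.81 in tumour 1 and 0.50 in tumour 2.

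Cell cycle genes had 0 of 58 called, with 1 nominally higher and 9 nominally lower (5.49% and 4.14% of all genes). Their median was -0.54 (-0.74 in tumour 1, -0.26 in tumour 2). Without overlap 23 lay below and 4 above (14.8% and 15.5% of all genes). The mitotic kinase gene cdk1 was at 2.76 and 3.82 in mCherry-only cells, against 4.41 and 7.18 in double-negative cells (-2.50, adjusted p = 0.25), and the lamin gene lmnb2 differed by -2.21 (adjusted p = 0.346). Ribosomal protein genes had 0 of 72 called, 0 nominally higher and 1 lower, and a median of -0.56, with -0.26 in tumour 1 and -0.85 in tumour 2. Of them 22 lay below without overlap, against 14.8% of all genes. Among these were rpl9 at 10.60 and 9.78 in mCherry-only and 11.57 and 11.01 in double-negative cells (-1.10, adjusted p = 0.532) and rpl11 (-1.06, adjusted p = 0.573). Oxidative phosphorylation and TCA cycle genes, a set that also takes assembly factors, had 0 of 100 called and 1 nominal call in each direction, with a median of 0.00. Their leading values were cox4i1l (-1.45, with -0.24 in tumour 1 and -2.65 in tumour 2) and idh3b (-1.36, with -2.29 and -0.43).

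Proteasome genes had 0 of 41 called, 0 nominally higher and 1 lower, and a median of -0.16, led by psmd10 (-1.97) and psma5 (-1.15). Heat shock and dissociation stress genes had 0 of 31 called, with 7 nominally higher and 1 lower (5.49% and 4.14% of all genes). Their median was 0.36, with -0.11 in tumour 1 and 0.82 in tumour 2. The small chaperone gene hspb1, which muscle also expresses, was at 8.11 and 6.01 in mCherry-only cells, against 5.22 and 2.82 in double-negative cells (3.04, adjusted p = 0.0547), while the mitochondrial chaperone gene hspd1 differed by -2.50 (adjusted p = 0.384). Notch, retinoic acid and RAS-MAPK response genes had 0 of 44 called, with 0 nominally higher and 5 lower. Their median was -0.20, with -0.40 in tumour 1 and 0.08 in tumour 2. The Notch target gene her6 was at 2.31 and 1.28 in mCherry-only cells and 6.89 and 1.22 in double-negative cells (adjusted p = 0.695), with 6.55 and 8.87 in double-positive and 7.86 and 7.88 in GFP-only cells. Among the GFP-negative arrays it was high in double-negative cells of tumour 1 alone, and her7 differed by -1.95 (adjusted p = 0.465).

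**Figure D4:**
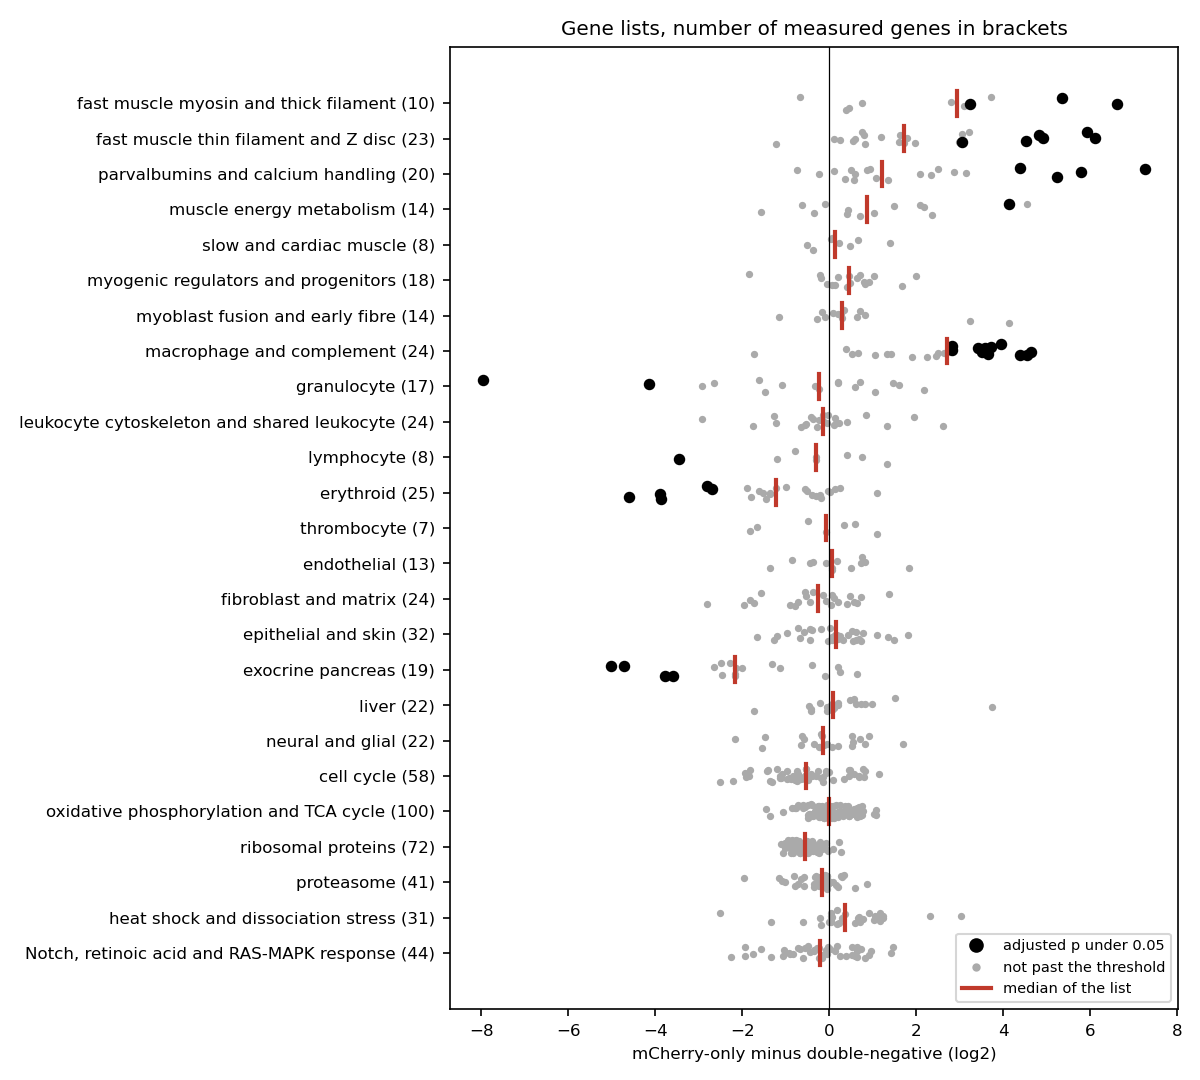
Difference between mCherry-only and double-negative cells (log2) for every measured gene of 25 lists, 1 point per gene, with large black points for genes called at an adjusted p under 0.05 and a red bar at the median of each list. Called genes lie to the right in the fast muscle and macrophage lists and to the left in the granulocyte, lymphocyte, erythroid and pancreas lists.

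The same mCherry contrast within GFP-positive cells, double-positive minus GFP-only, called 18 probe sets (0.116%). It shares no array with the GFP-negative contrast, but both come from the same tumours and the same fit. Each probe set has a single estimate of the spread for both contrasts, so calls in both are not independent. There mylpfa differed by 3.98, pvalb2 by 5.49 and mylz3 by 4.07 (adjusted p = 0.0462, 0.014 and 0.0277). Among the macrophage genes lgals3bp.1 was called there too, at 3.63 (adjusted p = 0.0426), while marco differed by 3.01 (adjusted p = 0.189), c1qc by 2.32 and apoeb by 1.41. In this contrast prss1 differed by 0.45 and lyz by 0.46 (adjusted p = 0.999 for both). List medians were 2.90 for thick filament, 1.18 for thin filament, 0.80 for parvalbumin and calcium, 0.76 for macrophage, 0.11 for erythroid and 0.18 for pancreas genes.

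The test of the difference between the contrasts called 0 of 15502 probe sets in limma (0.00%), with 624 nominal calls (4.03%). The smallest adjusted p among named genes was 0.0557, for lyz, with 0.0679 for prss1 and 0.113 for cela1.6, and most muscle genes stood at 0.999. Nothing above was called particular to GFP-negative cells by this test.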

How the data were processed

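Total RNA of 8 sorted fractions was amplified and labelled with the Ovation Pico WTA system, per the labels' protocols. The deposited table holds log-scale probe set signals, read here as log2. The sources used here state neither the summarisation of probes nor the scaling, and precision is limited by how few arrays there are. Values ran from 0 to 12.79, with 14 to 25 zeros per array, and no pair of arrays shared over 0.677% of values.

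A linear model of 4 population means with tumour as block was fitted to all 8 arrays (limma 3.58.1, lmFit and eBayes, R 4.3.3), two-sided, with Benjamini-Hochberg adjustment over 15502 probe sets. It had 3 residual and 6.81 prior degrees of freedom and a prior SD of 0.552. Populations of a tumour number come from the same tumour per the labels. Deviations of same-numbered arrays correlated at 0.48 across probe sets between mCherry-only and double-negative cells, and between -0.0291 (double-positive with double-negative) and 0.492 (GFP-only with double-negative) over all 6 pairs of populations. On simulated data with shifts of 2, 4 and 6, the test called 28 of 66, 66 of 67 and 67 of 67 shifted probe sets, with 10 false calls. The simulated noise was normal, independent and equally wide on every array, as the model assumes. These rates need not hold for the real arrays.

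The platform annotation gave 10795 probe sets 1 gene symbol, 135 several and 4572 none, and 10711 matched RefSeq identifiers. A gene is represented by its brightest probe set over all arrays (1539 genes had several). Named are the 15 genes with the largest called differences in each direction, up to 4 called members and the 2 leading uncalled members of each of 25 lists, mylpfa and myf5, 86 in all. Other called list members complete a count. Members and lists were chosen with earlier results of these data known. Alternatives covered the block, the arrays fitted, quantile normalization, dim probe sets (lowest 30% left out, floor at the 25th percentile), array weights, each array and each tumour's pair. Promoter motifs were not analysed here.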

Additional observations from a re-analysis of the deposited data

How the results depend on the processing

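Of the 82 higher and 36 lower probe sets, 29 and 14 were called without the tumour block. A fit of only the 4 arrays compared, with the block, called 67 higher and 29 lower. Of the 118 calls 86 were among them. Those lost there include ctss2.2, ctsz, alas2, epb41b, nkl.4, hmgn3 and ptpn4b. Leaving out both GFP-negative arrays of tumour 1 gave 168 and 91, and leaving out those of tumour 2 gave 54 higher. A floor at each array's 25th percentile gave 16 lower and array weights gave 56 lower. Leaving out 1 array gave 9 to 138 higher and 5 to 70 lower. The lowest counts came without an mCherry-only array (14 and 5 without that of tumour 1, 9 and 5 without that of tumour 2) and the highest without the double-negative array of tumour 1. Without the double-negative array of tumour 2, 30 were higher. With the floor, the uncalled differences of pvalb3 (1.96), cav3 (2.27), mrc1a (0.50), fabp7a (-0.67), her7 (-1.03), tal1 (-0.67), hspd1 (-1.65) and gata3 (-0.10) were nearer to 0 by over 1.5 times. The causes of these shifts were not tested. In the 16 alternatives 0 of the 118 calls changed sign, which is no separate check. Several settings leave the difference itself unchanged. Leaving out the pair of 1 tumour returns the difference of the other, which had the same sign for all 118. The array weights came out equal for both arrays of each population, so that setting could not weigh down a single array. Leaving out either GFP-only array gave the same fit of this contrast, and so did leaving out either double-positive array. The 16 are therefore not all distinct checks. The mylpfa difference lay between 4.70 and 6.0 when 1 array was left out, and passed in 15 of the 16 alternatives. Of 36 called named genes, 6 passed in all 16 alternatives (mylz3, pvalb2, tnnc2.2, pvalb1, prss1 and lyz) and 20 without the block. The test between the GFP-negative and GFP-positive contrasts, with 0 calls, gave 3 without the dimmest 30% of probe sets, 1 with the floor, 2 with array weights, 71 and 7 without the GFP-negative arrays of tumour 1 and of tumour 2, and 0 to 21 when 1 array was left out. With a pair left out, 1 residual degree of freedom remains and the lone arrays are assumed to vary like the others.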

Other observations

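Several genes called higher in mCherry-only cells lie outside the lists and the naming rule, and were chosen here after their values were seen. The acid sphingomyelinase gene smpd1, a lysosomal lipid enzyme, had 7.21 and 7.57 in mCherry-only cells, against 3.73 and 4.84 in double-negative cells (3.11). The lysosomal peptidase gene dpp7 differed by 4.25, the vacuolar proton pump genes tcirg1b by 2.86 and atp6v0ca by 2.63, and the glycolipid-binding gene gm2a by 3.02. The iron exporter gene slc40a1 was at 8.14 and 7.30 in mCherry-only cells and 4.57 and 4.58 in double-negative cells (3.15 ± 0.50, adjusted p = 0.0233). Apolipoprotein gene apoc1 differed by 4.17, and nfe2l2a, a transcription factor of the oxidative stress response, by 3.14. All were called in the limma fit on the probe set given. Other probe sets of dpp7 (2.63), atp6v0ca (1.67), gm2a (2.11) and nfe2l2a (0.51) were not called.

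The genes of this paragraph were also chosen after their values were seen, and how far they depend on single arrays is not described here. Among the calls, the ubiquitin ligase genes trim63b and trim55b, whose products bind the sarcomere, differed by 3.17 and 3.64. On the lower side, rasal3, a Ras GTPase-activating gene, differed by -3.38 and the phosphate transporter gene slc20a1a by -3.21.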
